A study of Canis lupus familiaris with 11 samples.

Results

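The comparison described here is that of LMNA knockout (KO) with wild-type (WT) cells at rest, before any compression. It uses the 5 uncompressed libraries of a series of 11, chosen by their sample labels: 2 from KO control cells and 3 from WT control cells. The cells are MDCKII, an epithelial line from dog kidney whose cells join into a polarised layer, and the KO cells are described as derived from it. Both genotypes were kept in the same serum-supplemented medium, collected without treatment once confluent, after 3 to 4 d of growth according to the sample labels; the series' design text names other times, day 7 and 2 h after reseeding, for wild-type cells. The other 6 libraries (3 WT, 3 KO) come from cells compressed laterally and left to recover for 2 h. They enter here through the shared estimate of spread and as a side-by-side comparison. The sources used here do not give how the knockout was made, or whether it is 1 clone or several. An effect of LMNA loss and a difference between the cell lines that arose in other ways therefore cannot be told apart. The labels number the replicates but do not say that they are separate cultures, so p-values cover no more than the differences among these samples, and that spread may be technical.

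LMNA encodes lamin A and lamin C, intermediate filament proteins made from 1 gene by alternative splicing. With the B-type lamins, encoded by LMNB1 and LMNB2, they form the lamina, a mesh on the inner face of the nuclear envelope. The lamina gives the nucleus stiffness, anchors proteins of the inner nuclear membrane and the LINC complex that joins the nucleus to the cytoskeleton, and contacts large, mostly silent stretches of chromatin.

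The 5 control libraries held between 12715099 and 17999623 counts, so that 1 read was worth 0.0543 to 0.0788 CPM, the library-scaled count rate used throughout (TMM factors). WT control replicate 1 stood apart from the other WT controls: its chi-square per gene was 77.3 against replicate 2 and 48.2 against replicate 3, while replicates 2 and 3 gave 15.1 and the 2 KO controls 9.05. Transcripts of the mitochondrial genome took 3.84% of its counts and 2.60% to 2.71% of the counts of the other 4. Of 20 kidney epithelial markers, 19 were above 1 CPM in all 5 libraries, with summed levels of 11187 to 12512 CPM in WT and 12151 to 12500 CPM in KO cells.

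LMNA, on the minus strand of chromosome 7 (41699201 to 41719658, CanFam3.1), fell in the KO cells. Its level was 679, 1208.5 and 933 CPM in the 3 WT libraries and 38.4 and 51.8 CPM in the 2 KO libraries. Both KO libraries lay far below every WT library, at a mean of 4.80% of the WT mean. The log2 fold change was -4.38 ± 0.30 (SE), with an adjusted p of 1.57e-05 (edgeR, quasi-likelihood F test, Benjamini-Hochberg over all genes). The 1652 LMNA reads left in the KO libraries are counted per gene, so the part of the gene they come from was not analysed here.

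The partners of lamin A in the nuclear envelope did not pass the test. Of 25 listed genes of the lamina and inner nuclear membrane, 22 were tested, LMNA alone was called, and the median log2 fold change was -0.01, the same as that of all 13560 genes tested (-0.01). LMNB1 (lamin B1) was at 332, 424 and 442 CPM in WT and 465 and 409 CPM in KO cells, a log2 difference of 0.13 ± 0.16. LMNB2 (lamin B2) was at 47.5, 104 and 69.0 CPM in WT and 58.5 and 48.1 CPM in KO cells, a difference of -0.47 ± 0.29. For both B-type lamins the genotypes overlapped. LBR, the lamin B receptor that tethers heterochromatin, differed by 0.15 ± 0.19, and EMD, which encodes the lamin-binding protein emerin, by 0.12 ± 0.24. TMEM201, an inner nuclear membrane protein, was the member with the smallest p after LMNA: 21.1, 19.0 and 17.6 CPM in WT and 12.3 and 11.7 CPM in KO cells, without overlap, but with an adjusted p of 0.52 in edgeR. None of 8 LINC complex genes was called. SUN1 and SUN2, its inner membrane subunits, differed by 0.09 ± 0.19 and 0.03 ± 0.18. Likewise 0 of 26 nuclear pore genes, 0 of 15 genes of ESCRT-III and envelope repair and 0 of 25 heterochromatin genes were called. At an unadjusted p under 0.05 in edgeR there were 2, 0 and 1 of them, and DESeq2 called none of these either. Of all genes, 0.339% were called and 7.79% had an unadjusted p under 0.05 in edgeR, so lists this short may hold no call by that share alone.

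Across all genes, 46 of 13560 were called at an adjusted p under 0.05, which is 0.339%. Of these, 18 were higher in KO cells (0.133% of genes tested) and 28 lower (0.206%). These shares are the background for the called members of every gene list in the text. The calls are asymmetric in size: the median log2 fold change was 1.60 among the higher genes and -4.24 among the lower ones, or -4.19 with the 6 genes of 0 KO reads set to their bound. The fitted values of those 6 depend on a small prior count, so the plots show them without giving their size. Without adjustment, 1056 genes (7.79%) had a p under 0.05, of which 622 were higher and 434 lower. The bulk of genes, from the 5th to the 95th percentile, lay between -0.81 and 0.67. Of the 13560 genes, 6545 had values above 0, the background for the counts of values above or below 0 in the lists.

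**Figure D1:**
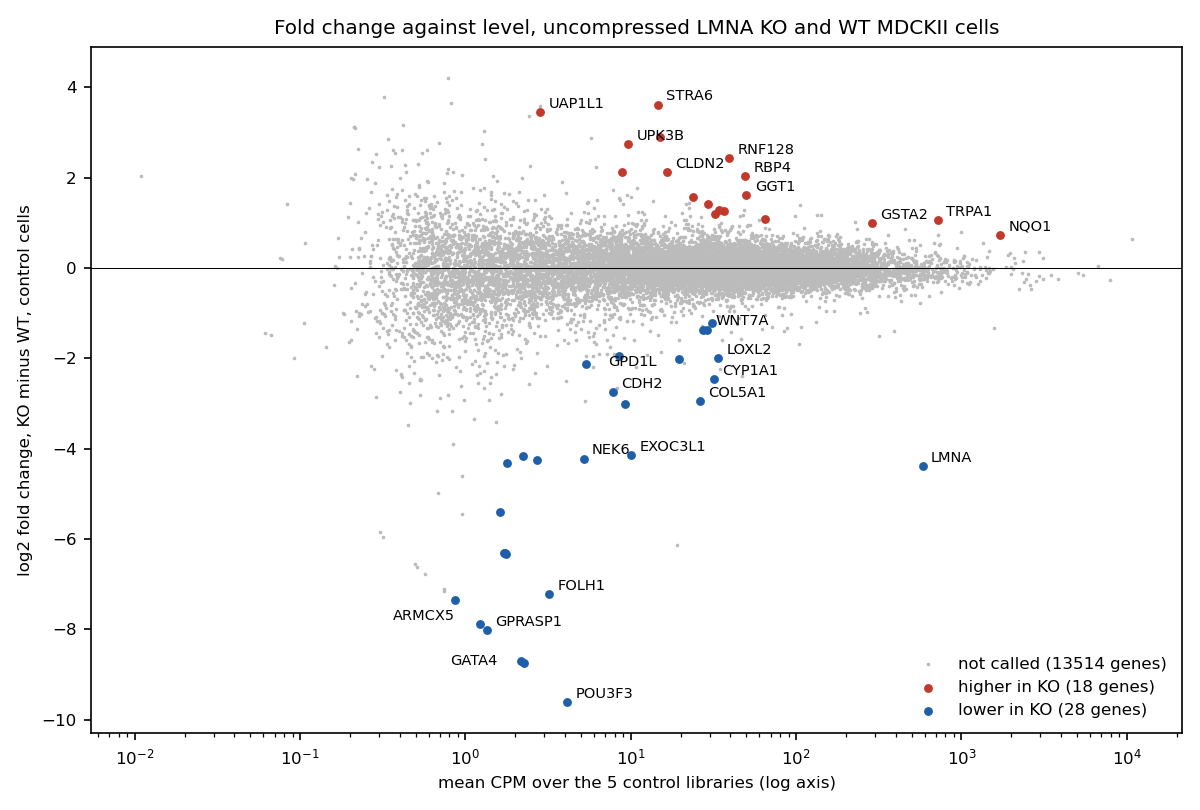
Log2 fold change of KO against WT control cells (vertical axis) against the mean CPM over the 5 control libraries (horizontal log axis), 1 point per tested gene. The 18 called higher genes are red and the 28 called lower genes blue; LMNA, at -4.38, is the most abundant of the lower genes.

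The deepest losses were of genes that WT cells expressed at a few CPM and KO cells hardly at all. Of the 28 called lower genes, 6 had 0 reads in both KO control libraries. POU3F3, a POU-domain transcription factor of the developing nephron and brain (chromosome 10, 38513890 to 38590302), was at 5.91, 8.12 and 6.60 CPM in the WT libraries. Against a floor of 3 counts over the KO group it was at least 84.3-fold lower. It was the 1 gene with at least 5 CPM in every library of one genotype and at most 0.1 CPM in every library of the other. GATA4, a zinc-finger transcription factor of heart and endoderm, was at 2.92, 4.16 and 3.79 CPM in WT cells and at least 44.6-fold lower. GPRASP1, which sorts G protein-coupled receptors after uptake, ARMCX5, an armadillo-repeat gene, and ZFP82, a zinc-finger gene, were at least 28.3-fold, 26.3-fold and 17.5-fold lower.

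A further 5 called genes kept 1 or 2 reads over both KO libraries. FOLH1, a membrane glutamate carboxypeptidase, had 237 reads in WT and 1 in KO control cells, a ratio of 197 with a 95% counting interval of 35.0 to 7815. The transcription factor PRDM16 had a ratio of 106 (18.6 to 4203), the delta-catenin gene CTNND2 of 103 (18.2 to 4104) and the ephrin receptor gene EPHA4 of 99.8 (17.6 to 3973), each with 1 KO read. ZNF17, a zinc-finger gene with 2 KO reads, had a ratio of 48.2 (13.1 to 403). These intervals and floors cover counting error only. ZNF304 overlaps ZNF17 on the same strand, so reads from the shared stretch cannot be assigned to 1 gene.

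Other lower genes kept a measurable level in KO cells. EXOC3L1, which encodes a protein related to a subunit of the exocyst, was at 13, 20.3 and 15.3 CPM in WT and 1.38 and 0.43 CPM in KO cells (log2 fold change -4.15 ± 0.49, adjusted p of 0.0021 in edgeR). NEK6, a kinase of mitosis, was at 8.59, 7.38 and 9.04 CPM in WT and 0.88 and 0 CPM in KO cells. SETBP1, the phospholipid flippase gene ATP8B4 and DZIP1, a gene of ciliary and hedgehog signalling, fell by 4.32, 4.26 and 4.16 on the log2 scale. In all of these every KO library lay below every WT library, which selection by a test of the same libraries favours.

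COL5A1, the alpha-1 chain of the fibrillar collagen V, was at 46.2, 40.2 and 34.0 CPM in WT and 4.74 and 5.70 CPM in KO cells (-2.94 ± 0.42, adjusted p of 0.0076 in edgeR). LOXL2, a lysyl oxidase-like enzyme that crosslinks collagen, was at 72.2, 36.6 and 35.3 CPM in WT and 14.9 and 9.13 CPM in KO cells. WT control replicate 1 lay well above the other WT libraries, and both KO libraries below all of them. Of 17 tested genes of collagens and matrix crosslinking, these 2 were called lower and 0 higher, against 0.206% and 0.133% of all genes. At an unadjusted p under 0.05 in edgeR, 6 were lower and 0 higher, against 3.20% and 4.59% of all genes. Values were below 0 for 14 of the 17, with a median of -0.37 against -0.01 for all genes. P4HA2, a collagen prolyl hydroxylase, was at 341, 268 and 276 CPM in WT and 190 and 185 CPM in KO cells, without overlap, but with an adjusted p of 0.25 in edgeR. R3HCC1 overlaps LOXL2 on the opposite strand and differed by -0.44.

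CDH2, which encodes N-cadherin, was at 12.8, 9.06 and 13.6 CPM in WT and 1.65 and 1.85 CPM in KO cells (-2.75 ± 0.42, adjusted p of 0.013 in edgeR). Of 22 tested genes of adherens junctions and mesenchymal transition, CDH2 and CTNND2 were called lower and 0 higher, and the median was -0.02. At an unadjusted p under 0.05 the list held these 2 and 4 higher genes, against 3.20% lower and 4.59% higher of all genes. Among the 4 were CDH17, an intestinal and kidney cadherin (34.3, 62.6 and 59.1 CPM in WT, 104 and 84.7 CPM in KO cells), and GRHL2, an epithelial transcription factor (31.7, 40.9 and 43.5 CPM in WT, 60.5 and 50.6 CPM in KO cells), with adjusted p of 0.25 and 0.53 in edgeR. Among signals, the ligand genes WNT2 and WNT7A fell by 1.36 each on the log2 scale. WNT2 was at 38.0, 35.2 and 35.2 CPM in WT and 13.3 and 14.8 CPM in KO cells. WNT7A was at 50.6, 31.6 and 32.6 CPM in WT and 15.5 and 14.2 CPM in KO cells. They were the 2 called members of 27 tested genes of the Wnt pathway and its targets, whose median was -0.02. FSTL1, a secreted glycoprotein that binds TGF-beta family members, was the 1 called member of 35 TGF-beta and BMP genes (-1.22 ± 0.21). FHOD3, a formin that assembles actin, fell by 1.94.

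CYP1A1, a cytochrome P450 induced through the aryl hydrocarbon receptor, was at 60.5, 43.0 and 38.0 CPM in WT and 8.87 and 8.26 CPM in KO cells (-2.46 ± 0.33, adjusted p of 0.0056 in edgeR). GPD1L, related to glycerol-3-phosphate dehydrogenase, was at 31.1, 24.7 and 27.7 CPM in WT and 6.72 and 6.95 CPM in KO cells (-2.02 ± 0.22). IDO1, which starts tryptophan breakdown, fell by 3.01. The MHC class II beta chain gene listed as HLA-DRB1 fell by 2.13; it belongs to a multigene family, so its reads may be split between copies.

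**Figure D2:**
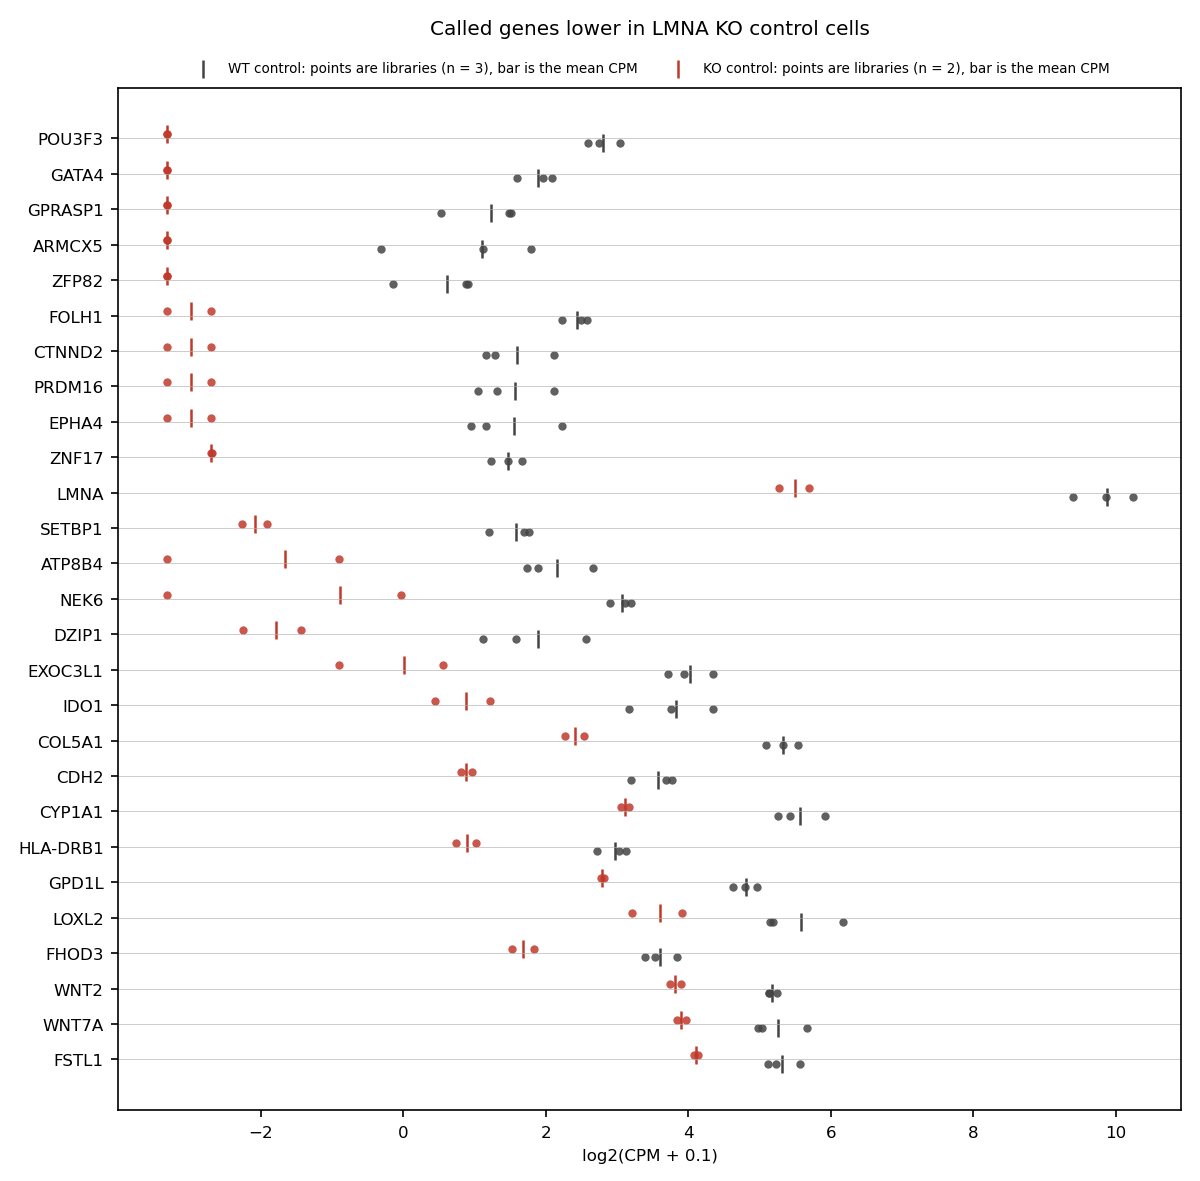
Level of 27 of the 28 called lower genes in each control library, as log2(CPM + 0.1), WT libraries in grey and KO libraries in red, with a bar at the mean CPM. Points at the left edge are libraries with 0 reads. Both KO points lie to the left of all 3 WT points in every row, but the rows were called from these same libraries.

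Of the higher genes, CLDN2 encodes claudin-2, the tight junction protein that forms pores for cations and water in leaky epithelia. It was at 4.49, 8.72 and 7.76 CPM in WT and 29.97 and 31.6 CPM in KO cells (2.13 ± 0.29, adjusted p of 0.0060 in edgeR), both KO libraries above every WT library. It was the 1 called gene of 10 tested claudins, whose median was 0.03; CLDN1 differed by 0.43 ± 0.18 and CLDN4 by 0.05 ± 0.37. RNF128, a membrane-bound E3 ubiquitin ligase, was at 14.9, 13.7 and 14.2 CPM in WT and 81.5 and 73.0 CPM in KO cells (2.44 ± 0.22, adjusted p of 2.03e-04 in edgeR). UPK3B, a uroplakin of the urothelial and mesothelial surface, was at 1.81, 4.29 and 2.69 CPM in WT and 18.2 and 21.3 CPM in KO cells (2.74 ± 0.30). PROM2, a prominin of plasma membrane protrusions, rose by 1.08 ± 0.21.

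The carrier and the receptor of retinol rose together. STRA6, the membrane receptor through which cells take up retinol, was at 3.15, 3.09 and 1.71 CPM in WT and 32.8 and 32.2 CPM in KO cells (3.62 ± 0.56, adjusted p of 0.014 in edgeR). RBP4, the retinol-binding protein that STRA6 recognises, was at 10.9, 32.2 and 22.5 CPM in WT and 88.7 and 91.4 CPM in KO cells (2.04 ± 0.32). The WT libraries of RBP4 differed widely among themselves, yet all stayed below both KO libraries. Of 20 tested genes of xenobiotic and retinoid metabolism, these 2 rose, CYP1A1 fell, and the median was 0.18. ALDH1A1, which makes retinoic acid, was at 582, 880 and 833 CPM in WT and 1440 and 1239 CPM in KO cells, without overlap, at an adjusted p of 0.14 in edgeR and of 0.036 in DESeq2. LRAT, which esterifies retinol, was at 17.7, 19.7 and 18.1 CPM in WT and 34.0 and 27.6 CPM in KO cells, with an adjusted p of 0.58 in edgeR.

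A further 3 higher genes act on glutathione or quinones. NQO1, a quinone reductase and a classical target of the factor NRF2, was at 1273, 1421 and 1349 CPM in WT and 2304 and 2193 CPM in KO cells (0.74 ± 0.13, adjusted p of 0.032 in edgeR). GSTA2, a glutathione transferase, rose by 1.00 ± 0.18, and GGT1, which cleaves extracellular glutathione, by 1.61 ± 0.31. Both belong to families of similar copies, between which reads may be split. On the list of 34 tested antioxidant and glutathione genes NQO1 was the 1 called member; 7 were higher and 2 lower at an unadjusted p under 0.05, against 4.59% and 3.20% of all genes, and the median was 0.10. GCLC, the catalytic subunit of glutathione synthesis, was at 462, 573 and 679 CPM in WT and 853 and 823 CPM in KO cells, with an adjusted p of 0.37. TXNRD1, another NRF2 target, had a value in the other direction, -0.40 ± 0.14.

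TRPA1, a cation channel opened by irritant and oxidising compounds, was abundant in these cells and rose: 506, 462 and 538 CPM in WT and 1038 and 1063 CPM in KO cells (1.07 ± 0.15, adjusted p of 0.0065 in edgeR). It was the 1 called member of 32 tested mechanosensitive and TRP channel genes, whose median was -0.06. Also higher were PPP1R3C, which targets a phosphatase to glycogen (1.19), the RNA-editing enzyme gene APOBEC1 (1.27), the transporter gene ABCA5 (1.27), the interferon-inducible nuclear factor gene MNDA (1.41) and the membrane skeleton gene ADD3 (1.58). The remaining 3 are a transcript on X that the authors assembled (2.13) and loci matched by protein similarity to SON (2.90) and UAP1L1 (3.46). RBP4, GSTA2 and GGT1, described above, were also named by such a match, which is less certain than a given gene name. Another locus matched to SON differed by -0.56 and another matched to UAP1L1 by -0.09.

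**Figure D3:**
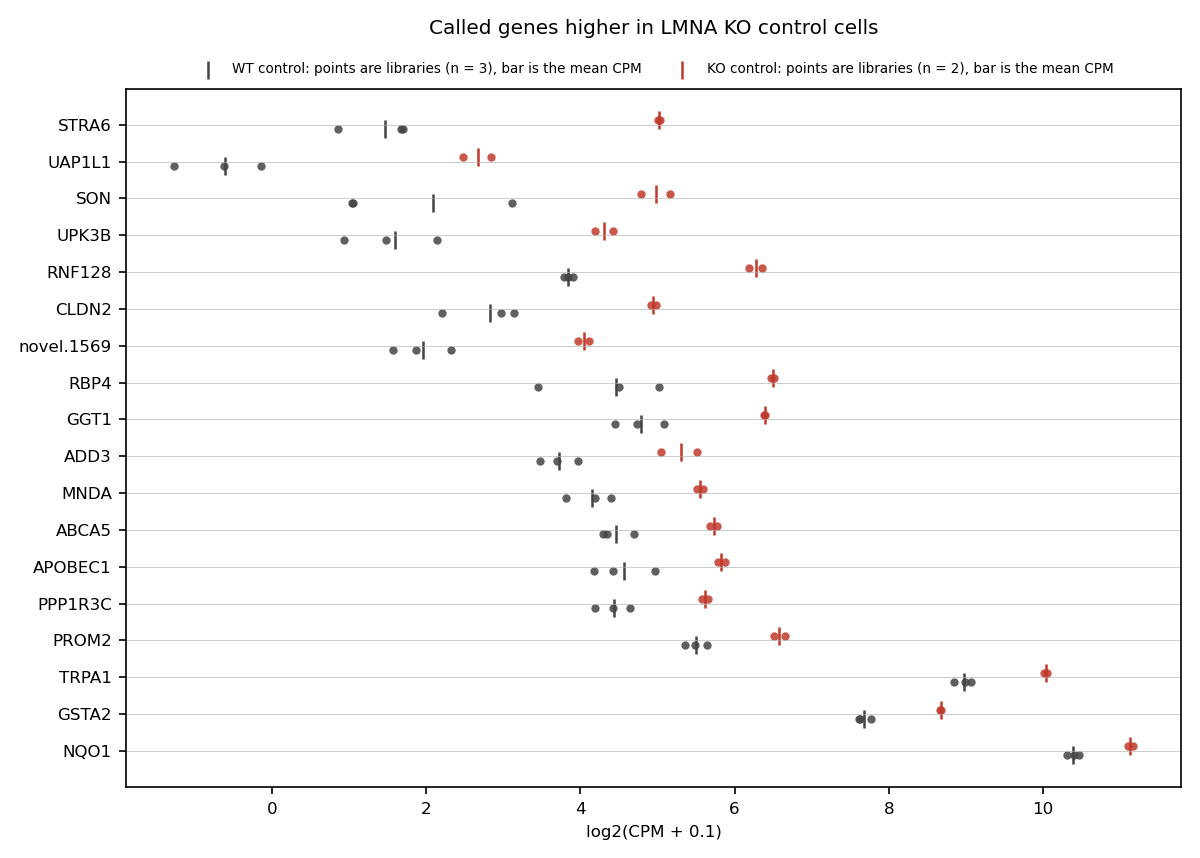
Level of each of the 18 called higher genes in each control library, as log2(CPM + 0.1), WT libraries in grey and KO libraries in red, with a bar at the mean CPM. Both KO points lie to the right of all 3 WT points in every row, but the rows were called from these same libraries. NQO1 and TRPA1 are the most abundant.

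Several lists held no called gene. Interferon-stimulated genes had 0 of 39 called by edgeR, 11 higher and 0 lower at an unadjusted p under 0.05, and 32 values above 0, with a median of 0.56. Of all genes tested, 4.59% were higher and 3.20% lower at that unadjusted threshold, and the median was -0.01. DDX60, an RNA helicase of antiviral defence, was at 0.47, 3.22 and 1.10 CPM in WT and 14.6 and 9.45 CPM in KO cells, with an adjusted p of 0.10 in edgeR and of 0.00087 in DESeq2. HERC6, an interferon-induced ligase-like gene, was at 92.3, 113 and 104 CPM in WT and 194 and 161 CPM in KO cells, with an adjusted p of 0.23 in edgeR. The summed level of the list was 1523 to 2051 CPM in WT and 2085 and 2471 CPM in KO cells, with WT control replicate 1 the lowest.

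Targets of YAP and TEAD, the co-activator and factors that respond to cell shape and tension, had 0 of 22 called, 0 higher and 4 lower at an unadjusted p under 0.05, and 19 values below 0, with a median of -0.25. The unadjusted shares over all genes (3.20% lower, 4.59% higher) are the background for this list and for the NF-kB and cilium lists. EDN1, which encodes endothelin-1, was at 138, 60.6 and 82.7 CPM in WT and 30.8 and 45.1 CPM in KO cells, with an adjusted p of 0.17 in edgeR and of 0.0087 in DESeq2, where it was the 1 called member of the list. Inflammatory targets of NF-kB had 0 of 21 called, 0 higher and 3 lower at an unadjusted p under 0.05, and a median of -0.31. Their summed level was 5474 CPM in WT control replicate 1, 1262 and 1811 CPM in the other WT libraries and 1370 and 1588 CPM in the KO libraries, so that the genotypes overlapped and 1 WT library stood far above. CSF2, a cytokine gene of that list, was at 87.0, 22.5 and 43.1 CPM in WT and 9.36 and 12.3 CPM in KO cells, with an adjusted p of 0.50 in edgeR. It was also highest in WT control replicate 1, but here both KO libraries lay below every WT library. The part of that library in these values was not tested. Genes of the primary cilium had 0 of 55 called, 4 higher at an unadjusted p under 0.05, and 45 values above 0, with a median of 0.21. DESeq2 called none of the NF-kB or cilium genes, and DDX60 alone of the interferon-stimulated ones.

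Markers of other cell types were low in both genotypes. Of 17 fibroblast and smooth muscle markers, 7 were at 0 in all 5 libraries, DCN, LUM and POSTN among them, and the summed level was 29.2 to 31.8 CPM in WT and 30.6 to 30.7 CPM in KO cells. Of 17 measured immune markers, 7 were at 0, PTPRC among them, with sums of 9.89 to 11.97 CPM in WT and 12.4 to 12.7 CPM in KO cells. Of 14 endothelial markers 5 were at 0, with sums of 63.5 to 121 CPM in WT and 63.7 to 82.7 CPM in KO cells, most of it FLT1. The other tested endothelial marker, the VEGF receptor gene KDR, was at 2.76, 0.20 and 0.73 CPM in WT and 0 CPM in both KO libraries, with an unadjusted p of 0.0094 and an adjusted p of 0.43 in edgeR. In bulk RNA fewer cells of a type and less RNA per cell cannot be told apart.

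Position along the genome was described without a test. Median log2 fold changes ran from -0.10 on chromosome 20 to 0.13 on chromosome 36, and over 402 windows of 5 Mb from -0.33 to 0.45. In compressed cells the medians of these 2 chromosomes were 0.05 and -0.13, and those of these 2 windows 0.01 and 0.09. On chromosome 20 the WT control libraries by themselves lay between -0.15 and 0.16 of their own mean, and on chromosome 36 between -0.07 and 0.09. Chromosome 29 had the largest share at an unadjusted p under 0.05 in edgeR. Of its 132 tested genes 19.7% passed, and 16.7% of the 132 passed with a higher value in KO cells. Over all genes these shares were 7.79% and 4.59%. Its median was 0.11 in control and -0.11 in compressed cells, and the WT controls there lay between -0.14 and 0.13 of their own mean. Some called genes lay side by side on X. RNF128 (80297969 to 80356139) and CLDN2 (80456159 to 80489644) both rose, and TBC1D8B between them was at 13.9, 10.6 and 9.53 CPM in WT and 20.7 and 18.6 CPM in KO cells (0.79 ± 0.28, adjusted p of 0.50 in edgeR). Of the 8 tested genes within 1 Mb of RNF128, 7 had values above 0, with a median of 0.76. RIPPLY1 overlaps CLDN2 on the opposite strand. GPRASP1 (76313740 to 76317833) and ARMCX5 (76272606 to 76274294) both fell to 0 reads. Of the 8 tested genes within 1 Mb of GPRASP1, ARMCX5 was the 1 called, and the median was 0.06. Near them, BEX2 differed by 0.27 ± 0.28 and TCEAL8 by 0.34 ± 0.18. On chromosome 30 the 2 neighbours STRA6 (37331629 to 37359116) and CYP1A1 (37793073 to 37800053) went in opposite directions. Of the 16 tested genes within 1 Mb of GSTA2 on chromosome 12, 8 had values above 0, with a median of -0.0008. GCLC, 653 kb away, was among the 5 of them that were higher at an unadjusted p under 0.05 in edgeR, and none was called. Of the 9 around TRPA1 on chromosome 29, 5 had values above 0 and 4 were higher at that threshold, with a median of 0.42, and none was called. Among the others, a locus listed as LDHA was lower at that threshold (-1.80 ± 0.70, 2.87 CPM in WT and 0.82 CPM in KO cells). Around LMNA itself, 58 tested genes within 1 Mb had a median of -0.09, and none was called.

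**Figure D4:**
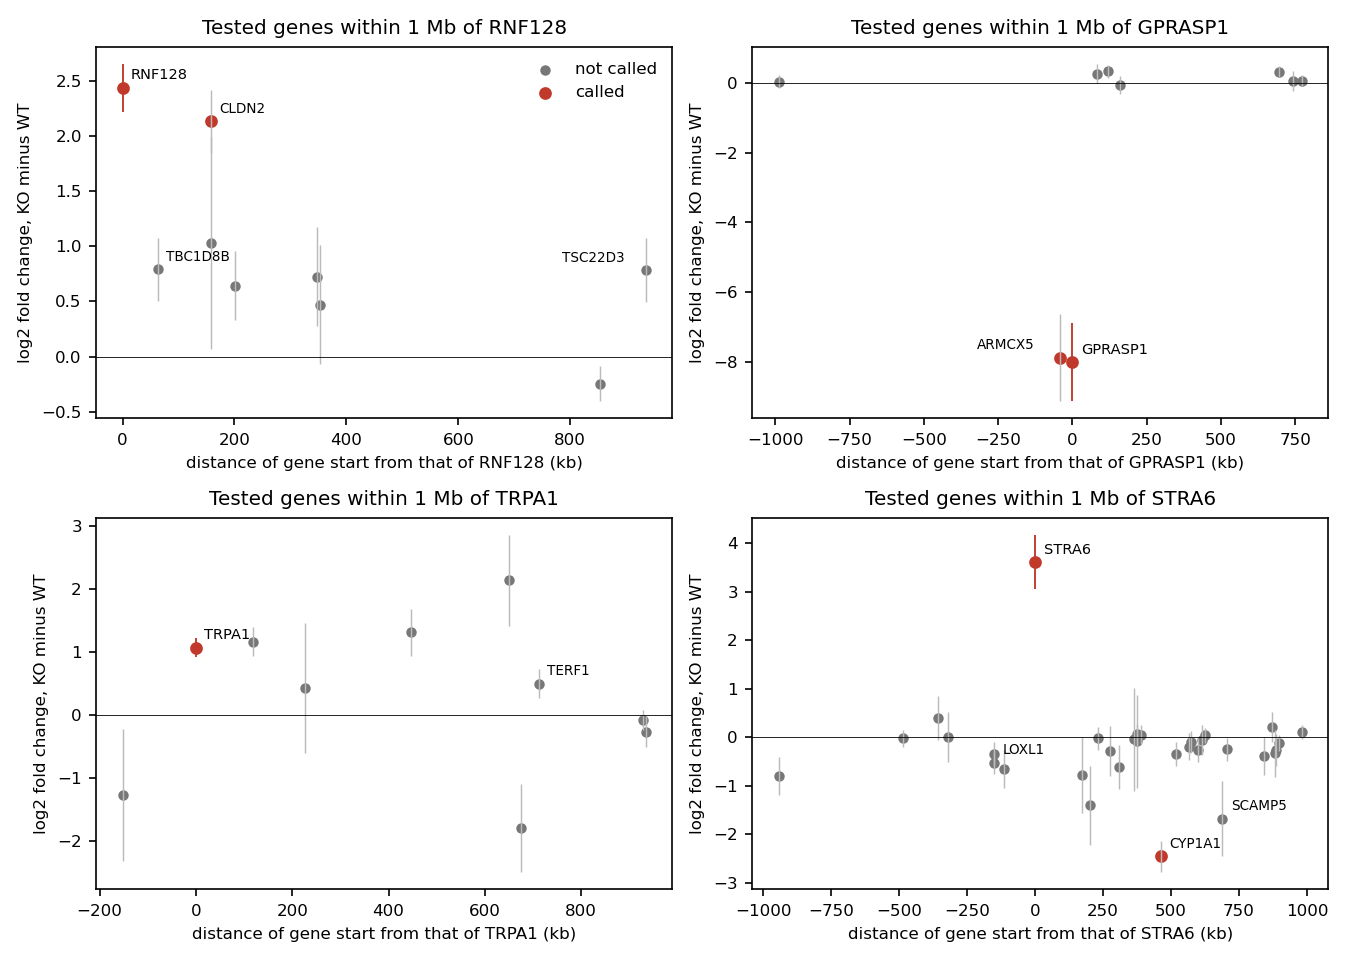
Log2 fold change with its SE (vertical axis) of tested genes within 1 Mb of RNF128, GPRASP1, TRPA1 and STRA6, against the distance in kb between the lowest coordinates of the genes (horizontal axis); called genes are red. RNF128 and CLDN2 stand together above 2, GPRASP1 and ARMCX5 (0 KO reads) together far below the rest, and STRA6 and CYP1A1 on opposite sides of 0.

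By the mean of the higher group, 0 of 926 genes under 1 CPM were called in edgeR. From 1 to 5 CPM 0.565% of 2124 genes were called, 0 higher and 12 lower. From 5 to 20 CPM the share was 0.397% of 2773 (3 higher, 8 lower), from 20 to 100 CPM 0.369% of 5150 (12 higher, 7 lower), and above 100 CPM 0.155% of 2587 (3 higher, 1 lower). Of the 46, 45 were annotated as protein-coding. Their median gene length was 3113 bases (higher) and 3362.5 bases (lower), against 2156 bases for all tested genes. In simulated counts with 200 of 13560 genes changed, edgeR recovered 19% of 2-fold changes, 82.5% of 4-fold changes and 91.5% of 8-fold changes. Among changed genes with a mean of at least 20 CPM it recovered 35.6%, 100% and 100%. Most 2-fold changes were thus missed in the simulation. It drew each gene independently, without a deviation of a whole library such as that of WT control replicate 1, so recovery in the real libraries may differ.

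The compressed libraries gave the same contrast in separate samples, fitted with a shared spread. All 46 genes had the same sign there, and 38 were also called in the same direction, which is 82.6% of the control calls and 35.5% of the 107 calls in compressed cells (0.789% of genes tested, 0.509% higher and 0.280% lower). LMNA was at 841, 829 and 751 CPM in compressed WT and 35.5, 25.5 and 43.6 CPM in compressed KO cells (-4.53 ± 0.25). POU3F3 again had 0 reads in all 3 KO libraries and 7.69, 8.05 and 8.18 CPM in WT. The 8 genes not called in compressed cells in this shared fit were EPHA4, IDO1, CYP1A1, LOXL2, WNT2, FSTL1, ABCA5 and UAP1L1. LOXL2 was at 21.1, 24.2 and 19.3 CPM in compressed WT and 16.2, 10.6 and 21.8 CPM in compressed KO cells, where the genotypes overlapped (-0.41 ± 0.32). In a fit of the compressed libraries alone, 44 of the 46 genes had the same sign and 30 were called in the same direction. The test of the difference between the 2 contrasts in the shared fit, the interaction of genotype and compression, called 0 genes in edgeR. At an unadjusted p under 0.05 in edgeR it held 650 of 13560 genes, 7 of the 46 among them. The 46 were selected on the control contrast, which is a part of the interaction, so their count cannot be weighed against that of all genes. For LOXL2 the interaction was 1.59 ± 0.49 with an adjusted p of 0.94.

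**Figure D5:**
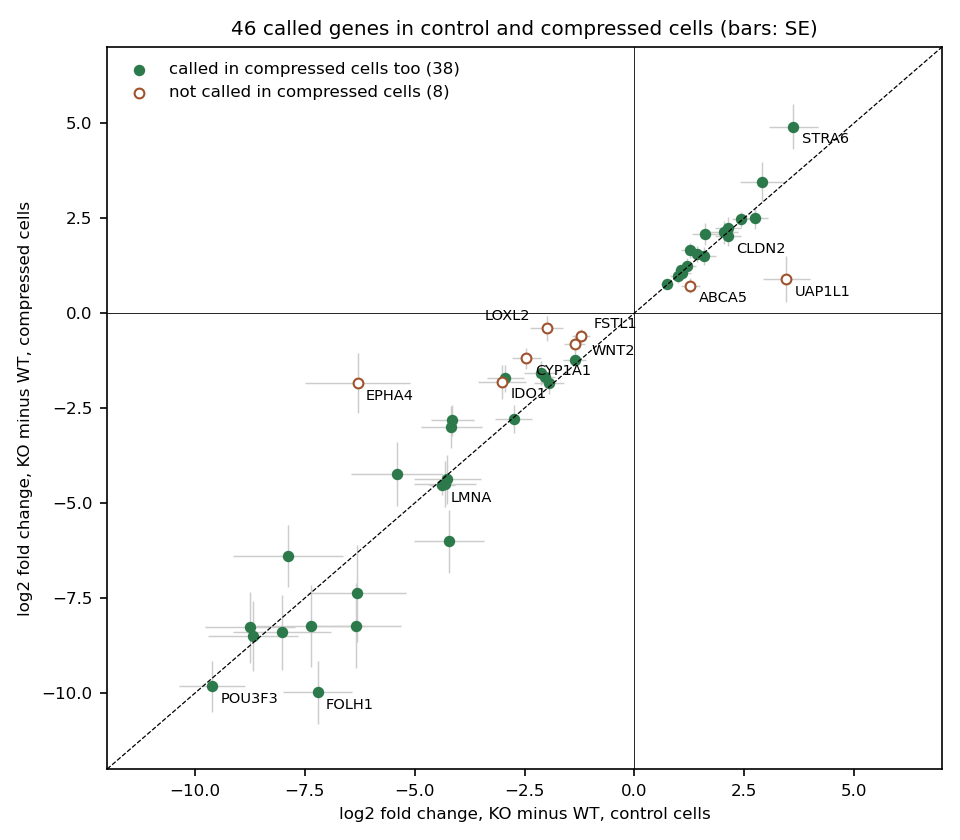
Log2 fold change of KO against WT in compressed cells (vertical axis) against that in control cells (horizontal axis) for the 46 called genes, with SE bars and a dashed line of equal values. All points lie in the quadrants of equal sign; the 8 open points were not called in compressed cells.

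The calls differ in how firmly they stand. LMNA, POU3F3, EXOC3L1, RNF128 and UPK3B were called in each alternative run for them (23 for LMNA, 22 for each of the others), and these include leaving out each control library. Of the 46 genes, 6 and 8 remained called when KO control replicates 1 and 2 were left out in turn. When WT control replicates 1, 2 and 3 were left out in turn, 27, 20 and 15 remained. The 19 lost with replicate 1, the WT library that stood apart, were ZFP82, CTNND2, PRDM16, EPHA4, ZNF17, ATP8B4, NEK6, IDO1, HLA-DRB1, LOXL2, FHOD3, WNT2, WNT7A, FSTL1, NQO1, GSTA2, PROM2, GGT1 and SON, with adjusted p values in edgeR from 0.052 to 0.11. Of these, ZFP82, CTNND2, PRDM16, EPHA4, ZNF17, HLA-DRB1, LOXL2, FHOD3, WNT2, WNT7A, NQO1, GSTA2, PROM2 and GGT1 were lost whichever control library was left out. Others, such as STRA6, MNDA, ADD3 and SETBP1, were kept without WT control replicate 1 but lost when any other control library was left out. With 2 libraries against 3, the smallest two-sided p of an exact rank-sum permutation test for a single gene is 0.2. Each call therefore rests on the spread that edgeR shares across genes. Full separation of the genotypes, in called or uncalled genes, reaches no lower p in that rank-sum test.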

How the data were processed

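RNA was measured in 11 MDCKII libraries, grouped by sample title. Per the labels' protocols, poly(A) selection on oligo(dT) beads preceded random-primed cDNA synthesis. HISAT2 2.0.5, CASAVA, FastQC and the build CanFam3.1 are named per the submitters' processing notes. Which gene counter, annotation release and strand setting were used is not stated there. Raw counts were deposited by the authors for 26178 genes, of which 0 rows named no gene, and the authors' FPKM values, which were used as an alternative only.

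Counts were tested with edgeR 4.0.16 in R 4.3.3 (filterByExpr, TMM, quasi-likelihood fit of 4 groups over 11 libraries, 7 residual degrees of freedom, two-sided, Benjamini-Hochberg, threshold 0.05). The compressed libraries enter because 5 libraries alone estimate the spread poorly. The test was checked on simulated counts. Folds against 0 reads use a floor of 3 counts over the group. Symbols came from the gene name column for 17933 genes and otherwise from the table's UniProt match (5701 genes), which is less certain; among called genes COL5A1, EPHA4, GATA4, GGT1, GSTA2, RBP4, SON, UAP1L1 and ZNF17 are of the second kind.

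The members and the 53 pathway and 4 marker lists were chosen with earlier results of these data known. The rule for named genes took LMNA, called genes of at least 5 CPM with the 12 largest changes or 6 smallest p in each direction, up to 4 called members of a list, and up to 2 members with the smallest p of a list without calls. Naming every called gene, and the lamina, retinoid, antioxidant and neighbouring genes given as values, is an extension made after their values were seen. Of the called genes, 1 is not reported here by name. The alternatives tried were RLE scaling, unscaled library sizes, other filters, DESeq2 1.42.0, a log2 fold change of at least 1, robust fitting, the 5 control libraries alone, a replicate block, limma 3.58.1 on log2(FPKM + 1) or log2(FPKM + 0.1), and leaving out each library.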

Additional observations from a re-analysis of the deposited data

How the results depend on the processing

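The count of called genes (46) was 43 to 45 under RLE scaling, library size alone, the stricter filter, the minimum log2 fold change and the robust fit, and 33 with the 5 control libraries alone. It rose to 124 with DESeq2 (63 higher, 61 lower) and 90 with no filter (45 and 45), both holding all 46, and fell to 16, 8 and 21 with limma on log2(FPKM + 1), log2(FPKM + 0.1) and log2(FPKM + 1) with no filter. Leaving out 1 library gave 6 (without KO control replicate 1) to 106 (without KO compressed replicate 2); it gave 8 without KO control replicate 2, 16 and 21 without WT control replicates 3 and 2, 24 without WT compressed replicate 1, and 43 without WT control replicate 1, of which 28 were higher and 15 lower. Where 1 KO control remained, it was assumed to vary like the other groups. Called list members (16) numbered 28 with DESeq2, 29 with no filter, 8, 4 and 7 in the 3 limma fits, and 2 to 29 without 1 library. Genes called the same way in compressed cells (38) numbered 79 with DESeq2, 60 with no filter, 19 in separate fits, 12, 7 and 14 with limma, and 6 to 53 without 1 library.

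With the replicate block, 15 genes were called (6 higher, 9 lower), 6 list members, and 13 the same way in compressed cells. The labels do not say what a shared replicate number stands for. Deviations of same-numbered control libraries from their group means correlated at -0.10 and -0.09 across genes, in 2 pairs. With 2 KO controls the deviations mirror each other, so these correlations cannot decide whether a number marks a shared batch.

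LMNA stayed called throughout, between -4.61 and -4.16 without 1 library. The median of chromosome 36 (0.13) was 0.033 with limma on log2(FPKM + 1) with no filter and 0.025 to 0.19 without 1 library, and that of chromosome 20 was -0.16 to -0.01. Without 1 library, 5 genes that were not called, all near 0, changed sign: EMD ranged from -0.047 to 0.249, SUN1 from -0.035 to 0.206, SUN2 from -0.052 to 0.127, CLDN4 from -0.079 to 0.286 and BEX2 from -0.025 to 0.483. No called gene changed sign. The cause of these changes was not tested. Depth limits genes under 1 CPM, of which none of 926 was called.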
